A study of Mus musculus with 6 samples.

Results

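Enamel genes of the developing tooth were followed through 6 messenger RNA libraries of the mouse nasomaxillary complex, the block of bone, cartilage, epithelium and tooth germs that forms the nose and upper jaw. The 8 genes were chosen by symbol from the 24346 in the files, and all 8 were present: Amelx, Ambn, Enam, Amtn and Odam, which encode secreted enamel matrix proteins, Klk4 and Mmp20, which encode the enamel proteases, and Sp6, which encodes a transcription factor of dental epithelium. Tissue came from E17.5 embryos. The 3 control libraries are from embryos with floxed Pth1r (Pth1r f/f), whose product is the receptor shared by parathyroid hormone and its related peptide. The 3 mutant libraries add the Wnt1-Cre transgene to that genotype (Wnt1-Cre:Pth1r f/f). The labels name no treatment, and all 6 carry the floxed allele. The controls carry no Cre, so an effect of the transgene and of Pth1r loss cannot be told apart. Nothing in the labels ties a library to its own embryo or litter, and the p-values speak only for the spread between these samples.

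Enamel is made by ameloblasts, which are epithelial cells of the tooth germ. In the secretory stage they release amelogenin (Amelx), ameloblastin (Ambn) and enamelin (Enam) together with the protease Mmp20, and in the later maturation stage they switch to Klk4, amelotin (Amtn) and Odam while the matrix is degraded and mineral fills the space. Odontoblasts, which face the ameloblasts and make dentin, come from the neural crest, where Wnt1-Cre is active, whereas ameloblasts come from oral ectoderm, which lies outside the neural crest. Upper tooth germs can be part of a nasomaxillary dissection, so their amount in each sample may differ.

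Values are FPKM, fragments mapped to a gene divided by transcript length and by library depth. The annotation behind the lengths and the scaling between libraries were not given in the sources used here. Levels of different genes therefore compare only roughly. Where values of a group are listed, they stand for replicates 1, 2 and 3 in that order. Total FPKM ran from 514693 to 546322 per library. Relative library sizes, read from the spacing of low values, ran from 0.671 in mutant replicate 3 to 1.11 in control replicate 2, with control replicate 1 set to 1. Bone and epithelium markers of the labelled tissue were high in every library, with Col1a1 from 3616 to 5328 FPKM and Krt14 from 63.5 to 145.6 FPKM. Pth1r itself measured 75.2, 55.2 and 73.5 FPKM in the controls and 77.3, 78.4 and 69.7 FPKM in the mutants; which exons are floxed is not labelled, so this level does not check the genotypes. Pthlh, the gene of the related peptide, was called higher in mutant, at 12.3, 11.0 and 11.4 FPKM against 7.02, 5.94 and 6.91 FPKM (limma adjusted p = 0.0228). Xist was between 74.1 and 77.1 FPKM in the 3 controls and mutant replicate 1, which had no Y-linked reads listed, and 0.0263 and 0.0295 FPKM in mutant replicates 2 and 3. The libraries therefore hold 4 female samples, of which 3 are controls, and 2 male samples, both mutant.

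The promoters of the 5 secreted matrix genes are shown here because these genes form the core of the set and because their windows share a short motif. Each window spans 250 bases before to 50 bases after the RefSeq transcription start (GRCm38.p6) and is written 5′ to 3′ on the strand of the gene. The capitals mark the sequence TGATTGG, an inverted CCAAT box with 2 further bases, which was picked after these windows had been read.
Amelx (chrX:169187160-169187459, minus strand): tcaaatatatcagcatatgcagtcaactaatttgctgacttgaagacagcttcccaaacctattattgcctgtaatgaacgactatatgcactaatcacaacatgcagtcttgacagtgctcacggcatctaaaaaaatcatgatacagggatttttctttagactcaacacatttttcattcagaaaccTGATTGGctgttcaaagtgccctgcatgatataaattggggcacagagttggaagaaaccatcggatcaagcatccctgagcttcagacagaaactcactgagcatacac
Ambn (chr5:88455741-88456040, plus strand): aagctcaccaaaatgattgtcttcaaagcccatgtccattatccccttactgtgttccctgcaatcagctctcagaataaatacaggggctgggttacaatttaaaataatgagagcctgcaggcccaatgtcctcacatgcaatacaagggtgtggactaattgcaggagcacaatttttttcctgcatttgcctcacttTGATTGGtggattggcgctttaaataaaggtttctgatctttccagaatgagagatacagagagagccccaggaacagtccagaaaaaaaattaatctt
Enam (chr5:88487725-88488024, plus strand): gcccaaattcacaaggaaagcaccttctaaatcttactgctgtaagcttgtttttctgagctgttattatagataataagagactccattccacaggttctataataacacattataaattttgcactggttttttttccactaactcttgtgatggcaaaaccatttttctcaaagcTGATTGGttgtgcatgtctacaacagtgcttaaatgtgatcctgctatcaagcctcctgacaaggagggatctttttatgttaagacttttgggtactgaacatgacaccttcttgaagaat
Amtn (chr5:88375858-88376157, plus strand): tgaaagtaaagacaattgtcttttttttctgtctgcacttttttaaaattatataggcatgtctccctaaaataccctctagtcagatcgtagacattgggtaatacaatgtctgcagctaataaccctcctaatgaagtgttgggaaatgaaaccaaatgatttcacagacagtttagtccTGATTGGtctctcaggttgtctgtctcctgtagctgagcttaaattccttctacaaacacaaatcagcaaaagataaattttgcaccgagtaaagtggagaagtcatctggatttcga
Odam (chr5:87884760-87885059, plus strand): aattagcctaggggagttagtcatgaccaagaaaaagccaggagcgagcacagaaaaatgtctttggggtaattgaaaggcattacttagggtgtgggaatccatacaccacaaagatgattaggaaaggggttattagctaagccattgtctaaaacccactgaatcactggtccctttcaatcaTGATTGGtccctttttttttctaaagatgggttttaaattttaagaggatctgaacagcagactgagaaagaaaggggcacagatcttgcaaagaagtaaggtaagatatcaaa

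The motif stood in all 5 windows in the same orientation, its first base 60 bases before the start in Amelx, 49 in Ambn, 72 in Enam, 68 in Amtn and 64 in Odam. Among 32851 windows of this length in the table, 7.82% held it on either strand and 4.01% in this orientation. It was not found in the windows of Klk4 or Mmp20, and the table held no window for Sp6. The shorter ATTGG, which lies within TGATTGG and is the reverse complement of CCAAT, was in the same 5 of 7 windows and in 37.4% of all windows on either strand. The TATA box letters TATAAA, searched on both strands, were in the windows of Amelx, Enam and Mmp20 and in 13.6% of all windows. Their first base was 31 bases before the start in Amelx, but 137 in Enam and 58 in Mmp20. The GC box GGGCGG was in none of the 7 and in 35.7% of all windows on either strand. These are matches of letters, not binding sites.

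Amelx had the widest range of the set. Amelogenin, its product, is the main protein of the secretory enamel matrix. The gene (chromosome X, 169176114 to 169187200, minus strand, GRCm38) measured 81.4, 84.4 and 0.880 FPKM in the controls and 1.50, 0.149 and 0 FPKM in the mutants. Control replicates 1 and 2 were high, and control replicate 3 lay among the mutants, below mutant replicate 1. The groups therefore overlapped. The control mean of 55.6 ± 47.4 FPKM (SD, n = 3) was 101 times the mutant mean of 0.549 ± 0.826 FPKM (SD, n = 3). On the log2(FPKM + 1) scale the change was -4.06 ± 1.39 (SE), with a limma p of 0.0219 and an adjusted p of 0.358. Amelx lies on the opposite strand inside an intron of all 7 annotated Arhgap6 transcripts, and whether the authors counted by strand is not given in the sources used here. Arhgap6, which encodes a GTPase activating protein, stayed between 2.11 and 2.78 FPKM in all 6 libraries.

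Enam followed the same libraries at a lower level. Enamelin is the largest and least abundant of the main enamel matrix proteins. The gene (chromosome 5, 88487975 to 88506049, plus strand) measured 3.46, 4.83 and 0.0142 FPKM in the controls and 0.286, 0.132 and 0.158 FPKM in the mutants. The spacing of these values puts them at 260, 403 and 1 fragments in control and 22, 9 and 8 fragments in mutant. Control replicate 3 was the lowest of all 6 libraries, and control replicates 1 and 2 the highest. The log2 change was -1.32 ± 0.60 (SE; limma adjusted p = 0.462).

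Ambn did not separate the libraries in the same way. Ameloblastin is a cell-adhesion protein of the matrix that is made from early in ameloblast differentiation. Its gene (chromosome 5, 88455991 to 88468531, plus strand) measured 24.3, 30.4 and 2.81 FPKM in the controls and 14.8, 12.4 and 11.2 FPKM in the mutants. All 3 mutant libraries lay between the high controls and control replicate 3. The mutant mean was 12.8 ± 1.80 FPKM against 19.2 ± 14.5 FPKM in control (SD, n = 3 each), and the log2 change was -0.077 ± 0.73 (SE; limma adjusted p = 0.983).

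The order of levels among the matrix genes thus differed between libraries. In control replicates 1 and 2 the level of Amelx was above that of Ambn, with an Ambn to Amelx ratio of FPKM of 0.298 and 0.360. In control replicate 3 the ratio was 3.19, in mutant replicates 1 and 2 it was 9.84 and 83.2, and in mutant replicate 3 Amelx was listed at 0. On the log2(FPKM + 1) scale the difference Ambn minus Amelx was -1.70, -1.44 and 1.02 in control and 2.66, 3.54 and 3.61 in mutant. Every mutant library was above every control library, control replicate 3 included. The members were chosen with earlier results of these data known, and how many other gene pairs separate the groups was not counted. Among single tested genes the groups did not overlap for 17%. The mean difference was 3.98 higher in mutant, with an exact two-sided permutation p of 0.10, the smallest that 3 against 3 libraries allow. Leaving out each library in turn gave 3.48 to 4.84.

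The proteases were near the limit of detection, and Mmp20 was seen mainly where Amelx was. Mmp20, enamelysin, is the metalloproteinase that cleaves amelogenin during secretion. It measured 1.08, 0.722 and 0 FPKM in the controls and 0.0672, 0.0507 and 0 FPKM in the mutants, which the spacing of values puts at 47, 35, 0, 3, 2 and 0 fragments. Control replicates 1 and 2 stood above the other 4 libraries, and 1 control and 1 mutant were listed at 0. Mmp20 (chromosome 9, 7628231 to 7674979, plus strand) overlaps the antisense gene AV064505. Klk4, the serine protease of the maturation stage (chromosome 7, 43881160 to 43885804, plus strand), measured 0.343, 0.185 and 0 FPKM in the controls and 0.0671, 0.228 and 0 FPKM in the mutants. At 5, 3, 0, 1, 3 and 0 fragments no difference in Klk4 was detectable at this depth.

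Amtn and Odam, the pair that also marks the maturation stage and the attachment of the gum to the tooth, were spread over both groups. Amtn (chromosome 5, 88376108 to 88385916, plus strand) measured 0.868, 1.17 and 0 FPKM in the controls and 0.849, 0.961 and 0 FPKM in the mutants. In its 4 positive libraries Amtn stood at 2, 3, 2 and 2 equal steps, a step being worth 0.434 FPKM in control replicate 1, so mutant replicates 1 and 2 were level with control replicate 1. Odam (chromosome 5, 87885029 to 87894174, plus strand) measured 0.857, 1.26 and 0.228 FPKM in the controls and 3.88, 0.712 and 2.23 FPKM in the mutants. Its highest library was mutant replicate 1 and its lowest control replicate 3, but mutant replicate 2 lay below control replicates 1 and 2. The mutant mean of Odam was 2.92 times the control mean, and its log2 change was 0.80 ± 0.39 (SE; limma adjusted p = 0.499).

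Sp6 varied least in level. Its product, also called epiprofin, is a zinc finger factor needed for ameloblast differentiation and present throughout dental epithelium and in hair follicles. Sp6 (chromosome 11, 97013394 to 97024734, plus strand) measured 14.5, 13.8 and 7.14 FPKM in the controls and 11.1, 9.24 and 10.4 FPKM in the mutants. As with Ambn, the 3 mutants lay between control replicate 3 and the other controls. The log2 change was -0.14 ± 0.23 (SE; limma adjusted p = 0.877). Sp6 was below Amelx in control replicates 1 and 2 and above it in every other library.

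**Figure D1:**
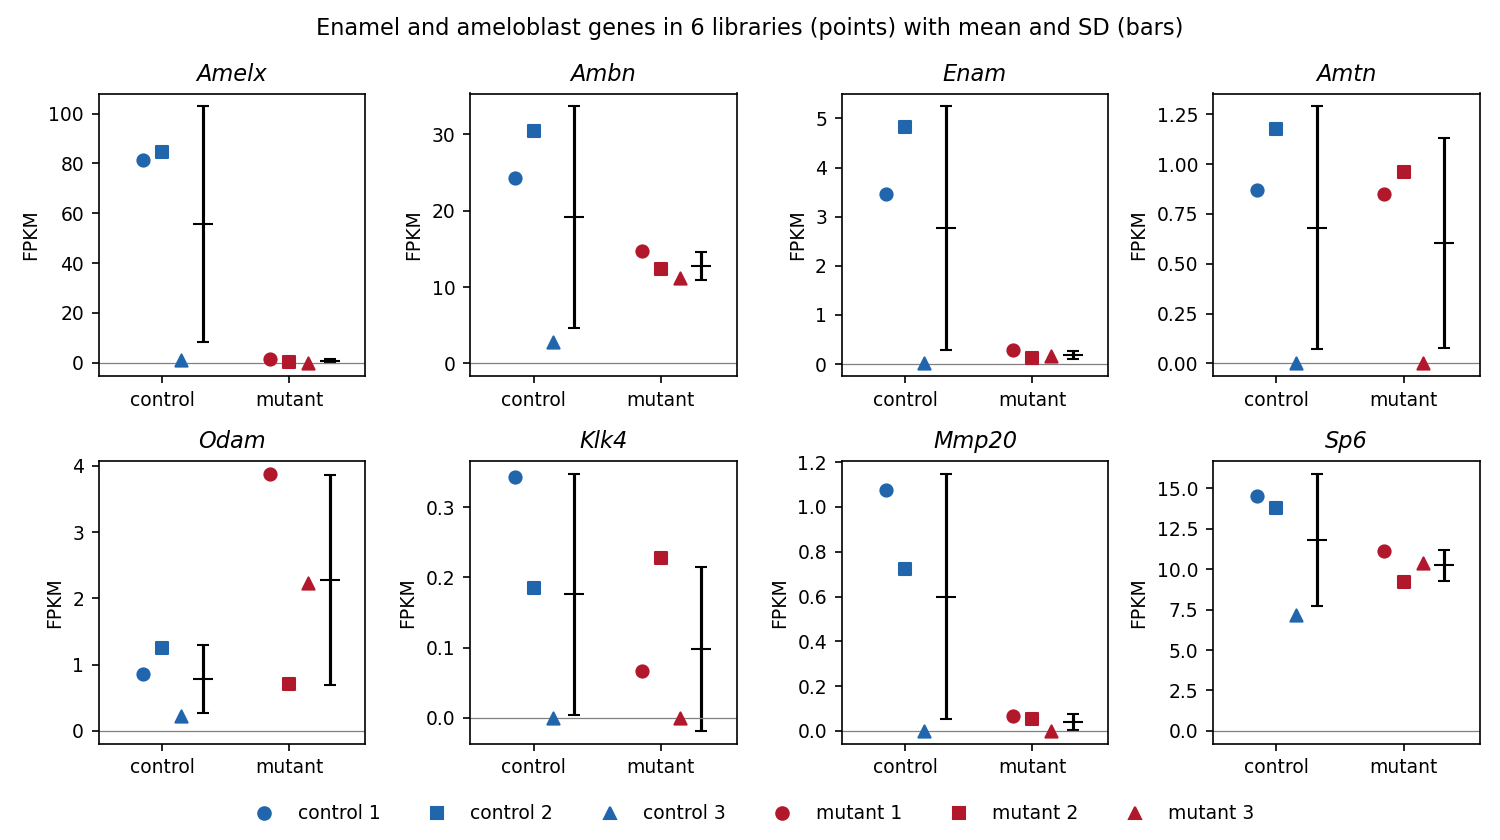
FPKM (vertical axes, linear, a scale for each gene) of the 8 genes in control (blue) and mutant (red) libraries, with symbols for replicates 1 to 3 and black bars for the mean ± SD. Control replicates 1 and 2 carried Amelx at 81.4 and 84.4 FPKM, while control replicate 3 sat at 0.880 FPKM among the mutants.

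Of the 8 genes, 5 reached an average of 1 FPKM across the libraries and were tested by limma: Amelx, Ambn, Enam, Odam and Sp6. None of the 5 was called at an adjusted p under 0.05, and 1, Amelx, had an unadjusted p under 0.05. Over the 14766 genes tested 0.264% were called, 11.3% had an unadjusted p under 0.05, and 17% had groups that did not overlap. None of the 5, and none of the 3 that were not tested, had groups that did not overlap. The median change of the 5 was -0.135, with 4 negative and 1 positive, against a median of -0.00197 over all tested genes. In a fit with no filter, which tests all 8, none was called either, and the unadjusted p of Mmp20 was 0.064.

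Each library was left out in turn, and only the fit without control replicate 3 called any of the 5 tested genes. Calls in that fit are a description, since control replicate 3 was the lowest control for each of the 5. With it left out Amelx changed by -5.88 ± 0.37 (SE; limma adjusted p = 0.00617) and Enam by -2.10 ± 0.17 (SE; limma adjusted p = 0.0211), and both were called lower. In that fit 19 genes were called, 0.129% of those tested. The change of Ambn was -1.04 (adjusted p = 0.103), of Sp6 -0.43 (adjusted p = 0.323) and of Odam 0.55 (adjusted p = 0.826) without that library, and none of them was called. Without control replicate 1 or control replicate 2 the change of Amelx was -3.16 and -3.13, with limma adjusted p of 0.550 and 0.543. The sample number in the title of control replicate 3 lies outside the range of those of the other 5 libraries, and no label says what these numbers stand for. Its tissue, genotype and protocol labels are those of the other controls. Its relative library size of 0.938 was inside the range of the other libraries.

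**Figure D2:**
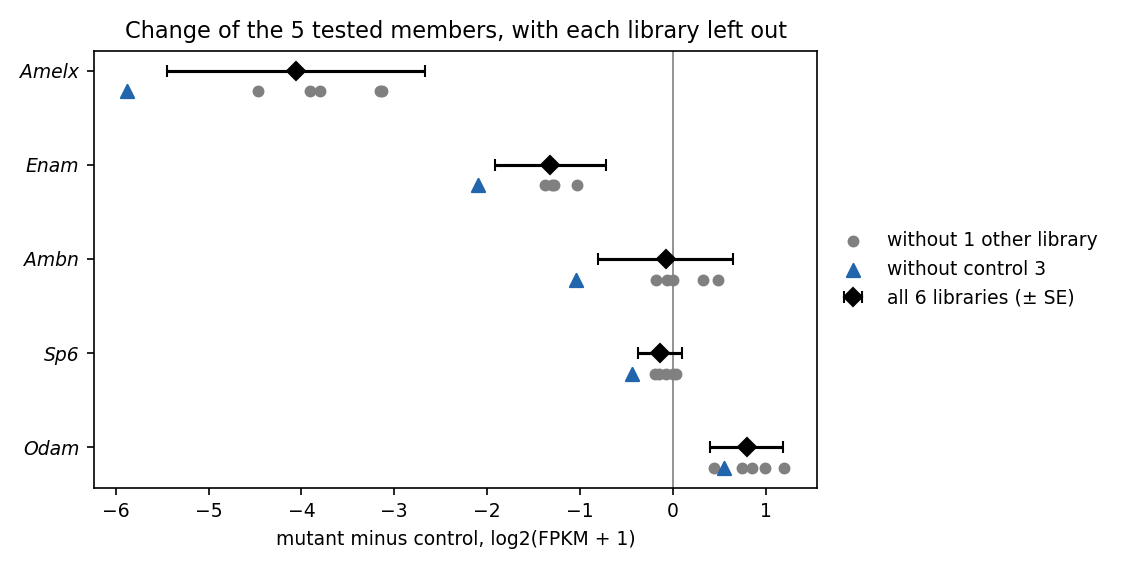
Change between mutant and control on the log2(FPKM + 1) scale for the 5 tested genes, with all 6 libraries (black diamonds, bars ± SE), without control replicate 3 (blue triangles) and without each of the other libraries (grey points, where Enam lacks the fit without control replicate 2 because its mean then fell under the filter). Without control replicate 3 Amelx moved to -5.88 and Enam to -2.10.

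Spread within the control group was wide for these genes, though Odam spread more among the mutants. The SD of log2(FPKM + 1) among the 3 controls was 3.16 for Amelx, 1.68 for Ambn, 1.36 for Enam, 0.52 for Sp6 and 0.45 for Odam, against a median of 0.0821 over all tested genes. Amelx ranked 26th, Ambn 38th, Enam 44th, Sp6 174th and Odam 250th of 14766 genes by this measure. Among the 3 mutants the SD was 0.71 for Amelx and 0.76 for Odam, but 0.19 for Ambn, 0.098 for Enam and 0.12 for Sp6, with a median of 0.0933 over all genes. In whole tissue, fewer ameloblasts and less RNA per ameloblast cannot be told apart. The share of tooth germ in each dissection was not measured.

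Genes of like pattern were sought among the 311 other tested genes with an SD of at least 0.5 over the 6 libraries. The measure was Pearson r with the mean profile of Amelx, Ambn, Enam and Odam. Their log2 values were centred but not scaled, so Amelx, with the widest range, weighs most. Odam, highest in mutant replicate 1, does not share this profile, which is highest in control replicates 1 and 2. With 6 points the r values are a description. Calb1, which encodes the calcium-binding protein calbindin, came first (r = 0.980), measuring 5.50, 6.67 and 0.648 FPKM in the controls and 1.24, 0.468 and 0.984 FPKM in the mutants. Dspp, which encodes the dentin proteins made by odontoblasts, came next (r = 0.972). It measured 10.4, 13.7 and 0.106 FPKM in the controls and 1.74, 1.77 and 0.594 FPKM in the mutants, or 628, 914, 6, 107, 96 and 24 fragments. Control replicates 1 and 2 were high in Dspp, and control replicate 3 was the lowest of the 6. The search picked genes by this pattern, so the match of Dspp is not separate support for it. The small nucleolar RNA Snora70 (r = 0.955) and Akr1b3, an aldose reductase gene (r = 0.919), followed. Akr1b3 measured 4.58 FPKM in control replicate 2 and under 0.001 FPKM in 3 libraries. Ascl5, a basic helix-loop-helix factor gene, ranked sixth (r = 0.755), with 3.18, 2.33 and 1.48 FPKM in the controls and 1.75, 0.441 and 1.48 FPKM in the mutants. The others of the first 10 were Sfta2, Hbb-b1, Rnaset2b, Snora21 and Mir6418, with r from 0.782 down to 0.651, and the last 2 were above 0 in control replicate 2 alone.

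**Figure D3:**
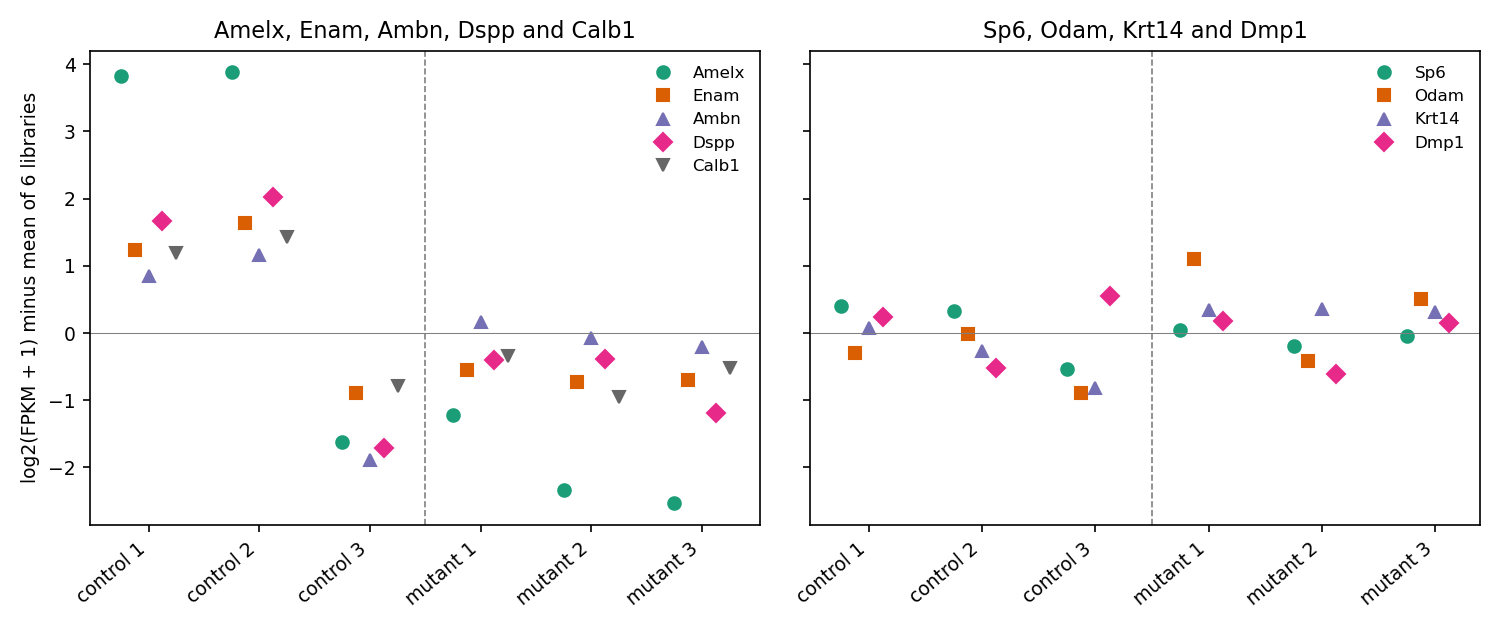
Log2(FPKM + 1) minus the mean of the 6 libraries (vertical axis) in each library (horizontal axis), for Amelx, Enam, Ambn, Dspp and Calb1 on the left and Sp6, Odam, Krt14 and Dmp1 on the right. On the left, control replicates 1 and 2 stand above the other 4 libraries for all 5 genes, of which Dspp and Calb1 were picked by this pattern. On the right they do not stand apart in this way except for Sp6.

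Other genes of enamel formation were read from a list of 16 whose loss disturbs enamel in people or causes a related syndrome. Of these, 15 were in the files and 14 were tested. None was called, 10 changes were positive and 4 negative, and the median was 0.075. Dlx3, a homeobox gene of epithelium and dental tissue, measured 24.9, 22.6 and 24.6 FPKM in the controls and 22.2, 17.4 and 19.0 FPKM in the mutants, a log2 change of -0.29 ± 0.090 (SE; limma adjusted p = 0.323). The Dlx3 groups did not overlap, as was so for 17% of all tested genes, but control replicate 3 was level with control replicate 1. Col17a1, a hemidesmosome collagen of basal epithelium, had a log2 change of 0.36 (limma adjusted p = 0.368). Acpt, an acid phosphatase gene of enamel named after its values were seen, was not tested and measured 0.132, 0.297 and 0 FPKM in the controls and 0.0645, 0 and 0 FPKM in the mutants.

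Among 15 signals and transcription factors of dental epithelium, 13 were tested. Against 0.264% of all tested genes, 1 of these was called. This was Sostdc1, a secreted BMP and Wnt inhibitor made around the enamel knots and in other facial tissues, which rose from 38.1, 36.5 and 31.0 FPKM in control to 62.7, 72.4 and 61.6 FPKM in mutant (log2 change 0.88 ± 0.093 SE; limma adjusted p = 0.0210). The list had 7 positive and 6 negative changes and a median of 0.076. Shh, an early signal of dental epithelium that other oral epithelia also make and that was chosen with its values in view, measured 1.66, 1.68 and 0.853 FPKM in the controls and 1.93, 2.06 and 2.43 FPKM in the mutants. The groups did not overlap, as was so for 17% of all tested genes, and the log2 change of 0.41 was not called (limma adjusted p = 0.428). Shh and Sostdc1 were both lowest in control replicate 3 and above 0 in all 6 libraries. Since other oral or facial tissues also make them, their levels do not show how much dental epithelium a library held.

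Of 10 odontoblast and dental mesenchyme genes 9 were tested and none was called, with 4 positive and 5 negative changes and a median of -0.0616. Barx1, a homeobox gene of molar mesenchyme, measured 13.5, 12.0 and 12.0 FPKM in the controls and 9.45, 5.49 and 9.65 FPKM in the mutants (log2 change -0.58 ± 0.19 SE; limma adjusted p = 0.325). Lhx8, a LIM homeobox gene of dental mesenchyme, went the other way, from a mean of 2.40 ± 0.465 to 3.50 ± 0.388 FPKM (SD, n = 3 each; limma adjusted p = 0.303). In neither gene did the groups overlap, which held for 17% of all tested genes. For Lhx8 control replicate 3, at 2.92 FPKM, was the control nearest to the mutants, and for Barx1 it was level with control replicate 2. Dmp1, a matrix protein gene of osteocytes as well as odontoblasts and named after its values were seen, was highest in control replicate 3, at 98.1 FPKM.

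Most of the matrix genes are neighbours in the genome. Odam, Amtn, Ambn and Enam lie in that order on 621 kb of chromosome 5, in the cluster of secretory calcium-binding phosphoprotein genes, with 19.4 kb between Ambn and Enam and 482 kb between Odam and Amtn. Ambn and Enam, next to each other, had mutant means of 12.8 and 0.192 FPKM. Of the other 11 genes listed for the cluster and its bone and milk branches, 7 were tested and none was called, with 3 positive and 4 negative changes and a median of -0.0775. Csn3, a casein gene beside Odam, measured 4.46, 6.90 and 3.78 FPKM in the controls and 6.50, 9.21 and 8.61 FPKM in the mutants (limma adjusted p = 0.333). Mepe, a bone member of the family made by osteocytes, measured 0.621, 0.431 and 1.02 FPKM in the controls and 1.50, 1.80 and 1.99 FPKM in the mutants (log2 change 0.72 ± 0.16 SE; limma adjusted p = 0.191).

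Most markers of stratified oral and skin epithelium followed the groups in level, and the list was lowest on average in control replicate 3. Cdh1 and Epcam were exceptions. Their groups overlapped, with log2 changes of 0.024 and -0.12, and neither was lowest in control replicate 3. Of 10 tested markers 9 had positive changes and none was called, and the median change was 0.481. The groups did not overlap for 8, against 17% of all tested genes. Their mean log2 level relative to the control mean was 0.33, 0.072 and -0.40 in control replicates 1 to 3 and between 0.52 and 0.55 in the mutants. Krt15 and Perp, both of stratified epithelium, gave 0.48 and 0.49 as log2 change (limma adjusted p of 0.136 and 0.244). Krt14, a basal keratin also made by dental epithelium, was 120, 94.0 and 63.5 FPKM in the controls and 144, 146 and 141 FPKM in the mutants. The 5 osteoblast markers were on the other side, with 5 negative changes, none called and a median of -0.27. Among them Bglap measured 28.1 FPKM in control replicate 3 against 13.9 and 10.7 FPKM in control replicates 1 and 2 and at most 7.20 FPKM in mutant, and Col1a1 had a log2 change of -0.32 (limma adjusted p = 0.388). The part of these tissue levels in the enamel gene values was not tested directly.

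Measured within each library against Krt14, which was itself higher in every mutant, Sp6 was lower in every mutant. The log2 difference Sp6 minus Krt14 was -2.96, -2.68 and -2.99 in control and -3.58, -3.84 and -3.64 in mutant, and control replicate 3 fell in with the other controls. The group difference was -0.81, with an exact two-sided permutation p of 0.10, the smallest this design allows. The mean of the 5 tested genes minus Krt14 was -3.31, -2.77 and -4.78 in control and -4.87, -5.55 and -5.35 in mutant, a difference of -1.63 with the same exact permutation p of 0.10. This mean is a description only. Amelx and Enam averaged 1 FPKM or more in the controls alone, and Odam in the mutants alone. For this mean the separation of the groups was lost with a pseudocount of 0.1 or 0.5 in place of 1, where the exact permutation p was 0.20 with each. Krt14 itself differed between the groups as given above, so these values describe the ratio and not Sp6 alone. The log2 change was 0.68 for Krt14 and -0.14 for Sp6. The choice of Krt14 matters. The groups did not overlap for 8 of the 10 epithelial markers, but Cdh1 and Epcam changed by only 0.024 and -0.12. In control replicate 3 Sp6 was lowest of the 6 libraries, at 7.14 FPKM, while Cdh1 and Epcam measured 54.6 and 93.3 FPKM. Both of these values were inside the range of the other libraries. The place of control replicate 3 among the controls therefore rests on its low Krt14. Ratios to Cdh1 and Epcam were not tested. With the mean of the 10 epithelial markers as a covariate, a fit added after seeing the data, the change was -8.31 for Amelx, -3.03 for Enam, -2.24 for Ambn and -0.85 for Sp6, and the limma adjusted p of these 4 ranged from 0.201 for Amelx to 0.840 for Ambn. Odam went the other way in that fit, at 0.26 (limma adjusted p = 0.999). The marker mean itself separated the groups, with 0.33, 0.072 and -0.40 in control and 0.52 to 0.55 in mutant. The fit therefore extrapolates, and its change of Amelx is larger than any difference measured between libraries.

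**Figure D4:**
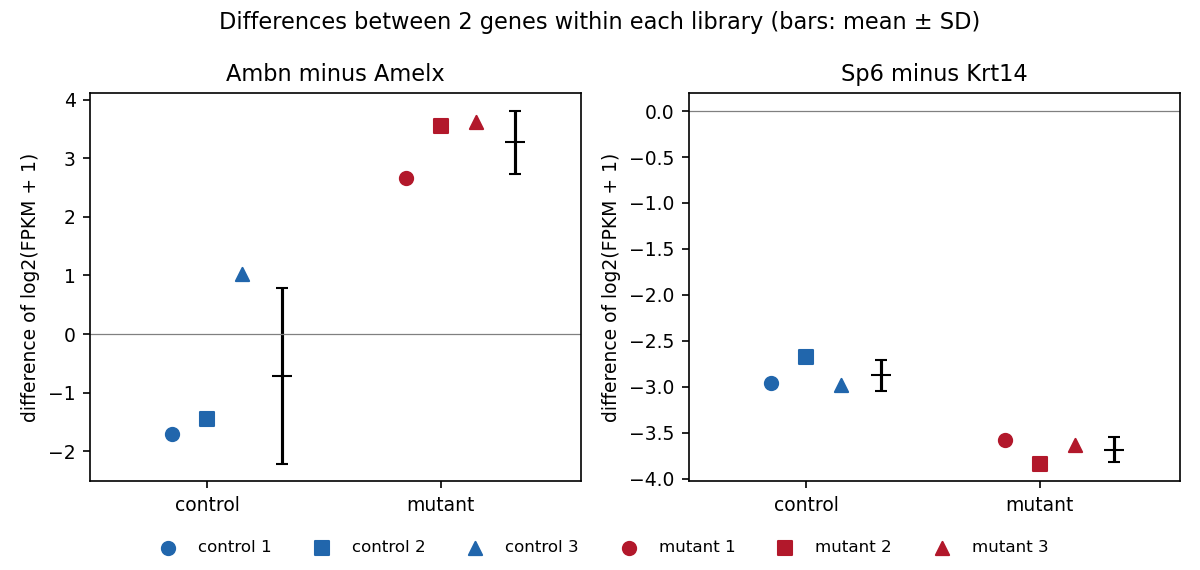
Difference of log2(FPKM + 1) between 2 genes within each library, Ambn minus Amelx on the left and Sp6 minus Krt14 on the right, for control (blue) and mutant (red) libraries, with black bars for the mean ± SD. In both panels the groups are apart, and control replicate 3 is the nearest control to the mutants on the left, at 1.02 against 2.66 for mutant replicate 1.

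Sex could be set against the X-linked Amelx only in part, since no control was male. Within the 4 female libraries Amelx was 81.4, 84.4 and 0.880 FPKM in the controls and 1.50 FPKM in the mutant, and the 2 male mutants were lower, at 0.149 and 0 FPKM. With sex as a covariate the change of Amelx was -3.24 ± 2.11 (SE; limma adjusted p = 0.999), and that of Odam was 1.50 ± 0.45 (adjusted p = 0.914). For the male mutants sex and genotype cannot be told apart.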

How the data were processed

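Messenger RNA of 3 control and 3 mutant libraries was grouped by the genotype label. The deposited values are FPKM by gene symbol, per the file headers. The submitters' processing notes name Cuffdiff 2.2.1, TopHat2 2.1.1, SAMtools 0.1.18 and Bowtie2 2.2.8 and the build mm10, with no roles. Annotation, filters, strand setting and scaling between libraries were not given in the sources used here. Count tests do not suit FPKM and were not run. The 14766 of 24346 genes that averaged 1 FPKM or more were fitted as log2(FPKM + 1), which understates changes of low genes, by limma 3.58.1 in R 4.3.3 (eBayes with trend, two-sided, no covariate, Benjamini-Hochberg over all tested genes, threshold 0.05, 4 residual degrees of freedom). Differences within a library were tested by exact permutation (scipy 1.17.1).

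Relative library size is the commonest ratio of values under 0.15 FPKM. Fragments are the whole steps of a gene's values after that scaling, within a tolerance of 0.05 plus 0.002 of the step number and at most 0.2. If a step is 1 fragment, the annotated lengths of Enam, Klk4, Mmp20 and Dspp put control replicate 1 at 13.7, 11.7, 13.3 and 13.6 (in units of 1000000 fragments). For Odam and Amtn they give 6.81 and 2.25 in that unit, so a step there may hold several fragments. Counts carry counting error only. Positions are from GENCODE for GRCm38, the same assembly as mm10.

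Genes named are the 8 members, called genes of 6 other lists or else the 2 of smallest p, Arhgap6, Pth1r, Pthlh and the 10 genes most alike; others are marked. Of the 73 listed genes 72 were in the files. The members and lists were chosen with earlier results of these data known. Other settings tried were a pseudocount of 0.1 or 0.5, all genes above 0, genes averaging 5 FPKM or more, 3 scalings, eBayes without trend or robust, library weights, sex as a covariate and leaving out each library, with the epithelial markers as a covariate added after seeing the data.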

Additional observations from a re-analysis of the deposited data

How the results depend on the processing

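Over 18 alternatives the count of members called stayed at 0 except without control replicate 3, where it was 2, so that leaving out each library gave 0 to 2. The count of all tested genes called, 39 in the chosen fit, was 18 with no filter, 19 without trend, 71 with library weights, 10 with sex as a covariate and 3 with the epithelial markers as a covariate, and 17 to 44 when each library was left out. The causes were not tested. Amelx and Odam kept their direction in all alternatives that tested them (18 and 17), as did Enam (16). Ambn, near 0 in the chosen fit, turned positive with library weights (0.15), with sex as a covariate (0.12) and without control replicate 1 (0.33), control replicate 2 (0.48) or mutant replicate 3 (0.0048), and Sp6 did so without control replicate 1 (0.032). Over single left-out libraries Ambn ran from -1.04 to 0.48 and Sp6 from -0.43 to 0.032, both lowest without control replicate 3. The 3 differences within a library kept their sign in all 8 alternatives of each, though the groups overlapped for the mean of the tested members minus Krt14 with either other pseudocount (exact permutation p = 0.20). Amtn, Klk4 and Mmp20 had a mean under 1 FPKM and were fitted with no filter only. Low values limit Klk4, Amtn and Odam. No paired analysis was possible because replicate numbers were given in accession order and no label ties a control library to a mutant one.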
